A study of Rattus norvegicus with 4 samples.

Results

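Transcripts of voltage-gated and potassium channel subunits were examined in neonatal rat cardiomyocytes supplemented with long-chain polyunsaturated fatty acids. The members were all genes whose array symbol starts with Kcn, Scn and a digit, Cacn, or Hcn and a digit, and whose probes had a value on every array. This gave 101 genes with 109 probes, of 9653 named genes in all. The prefix also takes in Kcnip3, whose product is known outside channels too, and it leaves out partner proteins without such a name.

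Ventricular cells of newborn Wistar rats were grown in primary culture, in HAM F10 medium with fetal calf serum and horse serum at 10% each. EPA cultures received 60 µM eicosapentaenoic acid, DHA cultures received 60 µM docosahexaenoic acid, and control cultures received neither. Each fatty acid was set directly against control RNA on 2 Agilent rat arrays with exchanged dyes, 4 arrays in all. On array 1 the supplemented cells carried Cy5 and on array 2 they carried Cy3. The labels do not say that the arrays of a swap hold separate cultures, so they were taken as 1 RNA sample per fatty acid without a replicate check. Such cultures also hold non-myocytes such as fibroblasts, and in a bulk sample fewer cells of a type and less RNA per cell cannot be told apart.

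Voltage-gated channels open when the membrane potential changes and so shape the cardiac action potential. Sodium channels carry its upstroke, L-type calcium channels carry the plateau and trigger contraction, and potassium channels bring the cell back to rest. HCN channels carry the pacemaker current. Most channels combine a pore subunit with auxiliary subunits that set its gating and its number at the surface. EPA and DHA are the main fatty acids of fish oil, and DHA has the longer carbon chain and a further double bond. Both are known for acting on cardiac ion currents at the level of the channel protein. Whether they also change the transcripts is what these ratios address.

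The values are taken as log2 ratios with the supplemented cells on top in every array, and the median of each array was set to 0. Neither the log base nor the direction of the deposited ratios is stated. The reading is a likely one because all 4 sample titles name the supplemented cells. Cpt1b encodes an enzyme of the mitochondrial carnitine shuttle for fatty acids and is known to be induced by fatty acids. It lay at 0.93 and 0.88 on EPA arrays 1 and 2 and at 1.296 and 0.983 on DHA arrays 1 and 2. Every direction below would turn if control stood on top, and folds would be larger if the base were 10. Values are given as the mean of a swap ± the distance of either array from that mean, which measures labelling and array error and not the spread between cultures. Only ratios were used here, so the level of a channel transcript in these cells, or whether it was above background, was not examined, and the labelled cell type could not be checked against the level of its markers.

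Part of the array surface stood apart. Of 1090 values under -1 on DHA array 1, 1082 lay in the first 66 grid columns inferred from the feature numbers. Of the 101 channel genes, 41 have a probe there and 36 have no other probe, which leaves 65 genes measured outside. Genes with a probe in these columns are marked "edge" below, and the counts over the list are given with and without those probes.

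No channel gene met the size rule with either fatty acid. The rule asked for at least 1.3-fold (0.38 on the log2 scale) in the same direction on both arrays of a swap. With EPA, 0 of 101 channel genes were higher and 0 lower, where 0.176% and 0.0829% of all 9653 genes were. With DHA, 0 were higher and 0 lower, where 0.145% and 0.238% of all genes were. Among the 65 genes outside the edge columns the counts were also 0, where 0.18% and 0.166% of the 7223 genes there were higher and lower with EPA, and 0.166% and 0.18% with DHA. At such low background shares a count of 0 in a list of this size is no different from the background. Arrays of a swap past 1.3-fold in opposite directions were found in 0 channel genes with EPA (0.746% of all genes, and 0.692% outside the edge columns).

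The channel genes as a group were centred on 0. Their median was -0.0059 with EPA and 0.0044 with DHA, beside -0.0012 and 0.0002 for all named genes. The middle of the list was narrow, with quartiles of -0.07 and 0.06 with EPA and of -0.06 and 0.05 with DHA. With EPA the means ran from -0.24 for Kcnma1 to 0.37 for Kcnk4 (edge). With DHA they ran from -0.76 for Kcnk6 (edge) to 0.33 for Cacng2 (edge), and without the edge columns from -0.16 to 0.21. The means of 97 of the 101 genes stayed within 1.3-fold with both fatty acids (8654 of all 9653 genes). Those of all 65 channel genes outside the edge columns did (7009 of the 7223 genes there). With EPA 0 means were 1.3-fold above or below control, where 1.11% and 0.767% of all genes were (1.08% and 0.678% outside the edge columns). With DHA 0 were above, where 0.818% were (0.817% outside). The typical distance of an array from the swap mean was 0.10 with EPA and 0.08 with DHA (medians over the 101 genes), wider than the quartiles of the means.

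**Figure D1:**
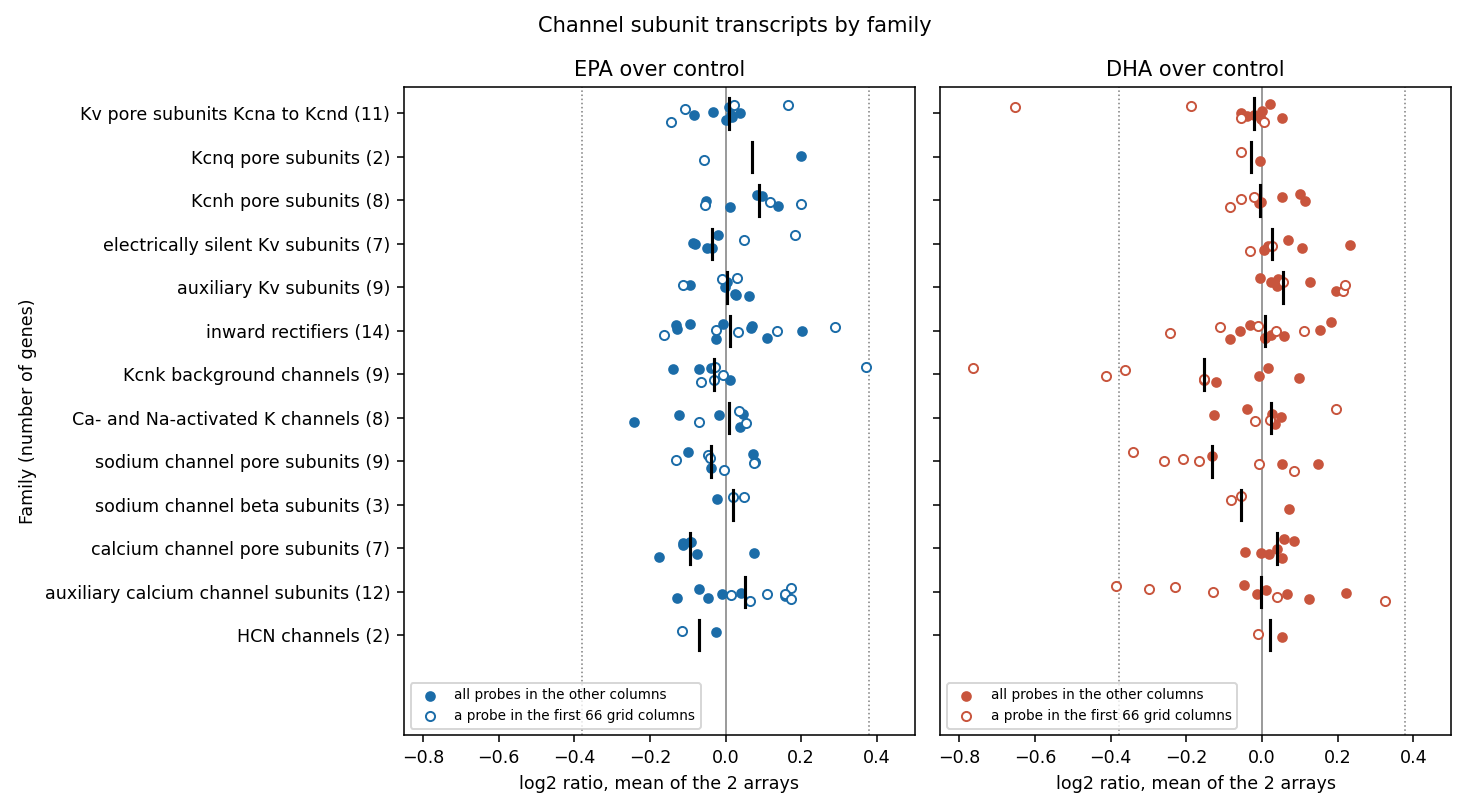
Swap means (log2 ratio, horizontal axis) of the 101 channel genes by family, with EPA on the left and DHA on the right; black ticks are family medians, open circles have a probe in the first 66 grid columns and dotted lines mark 1.3-fold. The families sit around 0, and the 4 DHA points left of the lower dotted line are all open circles.

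Among sodium channel genes, the pore subunits carry the current and the beta subunits tune it. For the 9 pore subunit genes the EPA median was -0.04 and the DHA median -0.13. For the 4 with a probe outside the edge columns they were 0.03 and 0.045. Scn10a (edge), a sodium channel of sensory neurons also linked to cardiac conduction, lay at 0.18 and -0.27 on EPA arrays 1 and 2 and at -0.40 and -0.29 on DHA arrays 1 and 2. It was thus below 0 on 3 arrays and above it on EPA array 1. Scn7a (edge), a sodium channel-like gene that senses sodium concentration, lay below 0 everywhere, at -0.04 and -0.23 with EPA and -0.01 and -0.32 with DHA. Scn11a, a sodium channel of sensory neurons outside the edge columns, was also below 0 everywhere, at -0.05 and -0.15 with EPA and -0.07 and -0.20 with DHA. Scn3a, a mainly neuronal subunit, split by dye orientation, with -0.05 and 0.20 on the EPA arrays and -0.04 and 0.34 on the DHA arrays.

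The beta subunits Scn2b (edge), Scn3b and Scn4b (edge) had swap means between -0.02 and 0.05 with EPA and between -0.08 and 0.07 with DHA. The probes of Scn4b differed by up to 0.65 on 1 array. On DHA array 1 its 2 edge probes lay at -0.28 and 0.37 and its other probe at 0.0087. The probes of Scn8a, a neuronal pore subunit also found in heart, differed by up to 0.65 as well, with -0.30 at the edge probe and 0.34 at the other on EPA array 1. Averaging these probes therefore hid a disagreement larger than any swap mean of the sodium channel genes.

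Among calcium channel genes, all 7 pore subunits have their probes outside the edge columns. Their EPA median was -0.09 and their DHA median 0.04. Cacna1c, the L-type pore subunit of ventricular muscle, lay at 0.10 and 0.05 on EPA arrays 1 and 2 and at 0.07 and -0.04 on DHA arrays 1 and 2. All 4 values were small, and the mean was 0.07 ± 0.03 with EPA and 0.02 ± 0.06 with DHA. Cacna1d, the L-type pore subunit of pacemaker cells, lay at -0.09 and -0.13 with EPA and at 0.06 and 0.11 with DHA. Such a pattern, with the fatty acids on opposite sides of 0, was shown by 8.49% of all genes (5.99% outside the edge columns). The T-type pore subunit Cacna1h had the lowest EPA mean among channel genes whose EPA arrays shared a sign, with -0.24 and -0.11 on the EPA arrays and 0.14 and -0.02 on the DHA arrays. Cacna1g, the other T-type subunit of heart, split by dye orientation instead, at 0.15 and -0.34 with EPA and 0.12 and -0.20 with DHA.

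Over the 12 auxiliary calcium channel genes the EPA median was 0.05 and the DHA median -0.0015, and for the 7 outside the edge columns they were 0.0014 and 0.04. Cacna2d1, the alpha-2-delta subunit that promotes surface expression, lay at -0.33 and 0.07 on EPA arrays 1 and 2 and at -0.52 and 0.42 on DHA arrays 1 and 2. It was the 1 channel gene past 1.3-fold on both arrays of a swap in opposite directions, a pattern shown with DHA by 0.715% of all genes (0.581% outside the edge columns). Cacnb2 (edge), the main cardiac beta subunit, lay at 0.18 and -0.16 with EPA and at -0.50 and -0.27 with DHA, and its DHA mean was -0.39 ± 0.12. Cacnb3 (edge), a further beta subunit, had 2 probes that parted on DHA array 1, with -1.41 at the edge probe and 0.17 at the other. Cacnb1, also a beta subunit, had means of -0.0099 ± 0.04 with EPA and 0.01 ± 0.02 with DHA.

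Gamma subunits are best known from skeletal muscle and brain. Cacng4 lay at -0.09 and 0.40 on EPA arrays 1 and 2 and at 0.04 and 0.41 on DHA arrays 1 and 2, so it was past 1.3-fold on arrays 2 alone. Cacng2 (edge) had its highest value on DHA array 1, at 0.72, beside -0.07 on DHA array 2 and 0.13 and 0.0038 on the EPA arrays. Cacng6 (edge) lay at 0.33 and 0.02 with EPA and at -0.15 and -0.11 with DHA.

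Voltage-gated potassium channel genes were followed from the pore subunits to their partners. The 11 Kv pore genes of the Kcna to Kcnd families had an EPA median of 0.0097 and a DHA median of -0.02. Kcna4, a pore subunit of the transient outward current, was at 0 within 0.02 on all 4 arrays. Kcna5 (edge), which carries an ultrarapid repolarizing current in the atria, lay at 0.24 and -0.19 with EPA and at -1.05 and -0.26 with DHA. Its DHA mean of -0.65 ± 0.40 thus rested mainly on DHA array 1. Kcnd2, the main pore subunit of the rodent transient outward current, had 1 of 2 probes at the edge and means of -0.11 ± 0.05 with EPA and 0.0044 ± 0.03 with DHA. Kcnd1 (edge) of the same family was at -0.13 and -0.16 on the EPA arrays and at 0.03 and -0.14 on the DHA arrays.

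Delayed rectifier channels end the action potential. Kcnh2 (edge), the pore subunit of the rapid delayed rectifier, lay at 0.58 and -0.18 on EPA arrays 1 and 2 and at -0.07 and -0.10 on DHA arrays 1 and 2. A value past 1.3-fold was thus seen on EPA array 1 alone. Kcnq1, the pore subunit of the slow delayed rectifier, lay at 0.16 and 0.24 with EPA and at -0.0051 and -0.0058 with DHA. It was 1 of the 5 highest genes with EPA among those whose arrays shared a sign, at 0.20 ± 0.04. Kcnh6, a relative of Kcnh2, lay above 0 everywhere, at 0.20 and 0.08 with EPA and 0.18 and 0.05 with DHA.

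The electrically silent subunits, which alter other Kv pores without forming a channel alone, had an EPA median of -0.04 and a DHA median of 0.03 over 7 genes. Kcng3 was 1 of these, with 0.05 and -0.09 on the EPA arrays and 0.24 and 0.22 on the DHA arrays. Its DHA values agreed closely with each other, and its mean of 0.23 ± 0.01 was the highest DHA mean among channel genes whose DHA arrays shared a sign. Kcns1 (edge), another silent subunit, stood at 0.16 and 0.21 with EPA and at -0.05 and 0.11 with DHA.

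The 9 auxiliary Kv genes had an EPA median of 0.0037 and a DHA median of 0.06, and the 7 outside the edge columns had 0.01 and 0.01. Kcnip2 (edge), the partner of the Kv4 pores in the transient outward current, lay at 0.17 and -0.19 with EPA and at 0.62 and -0.18 with DHA, with opposite signs in both swaps. Kcnab1 lay at -0.30 and 0.35 with EPA and at 0.12 and 0.28 with DHA, and Kcnab2 (edge) had means of 0.03 ± 0.095 and 0.21 ± 0.27. Kcne1, the partner of Kcnq1, had means of 0.03 ± 0.04 with EPA and -0.0061 ± 0.03 with DHA, and Kcne3 of 0.0037 ± 0.16 and 0.02 ± 0.15. Kcne2, a small auxiliary subunit, lay at -0.0097 and -0.18 with EPA and at 0.20 and 0.05 with DHA. Dpp6 and Dpp10, further partners of the Kv4 pores outside the naming rule, had means of -0.13 and -0.20 with EPA and of -0.03 and 0.04 with DHA.

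**Figure D2:**
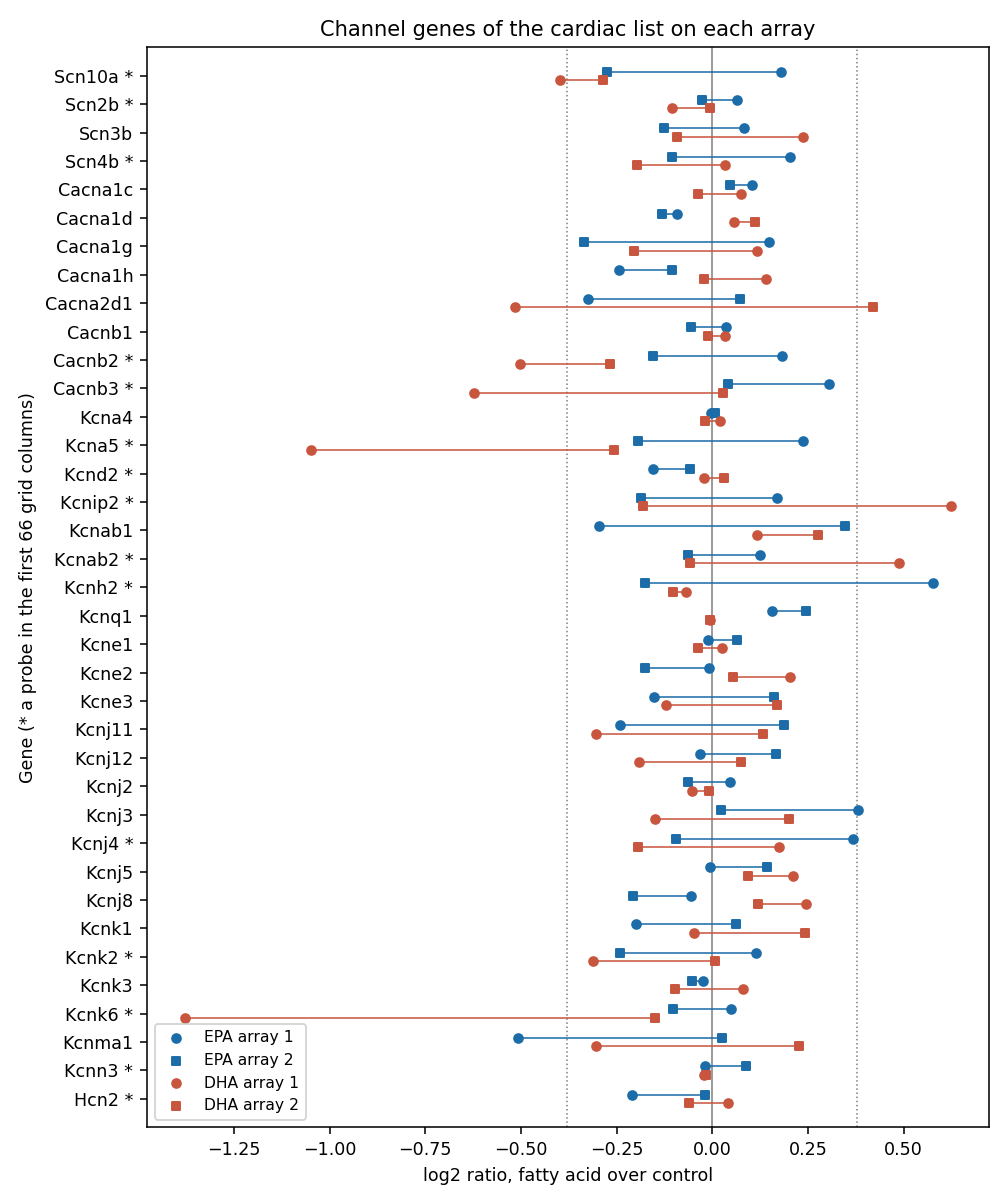
Log2 ratios (horizontal axis) on each array for the 37 measured genes of a list of channel genes known in heart; EPA is drawn above DHA in each row, circles are array 1, squares are array 2, dotted lines mark 1.3-fold and asterisks mark genes with a probe in the first 66 grid columns. Most pairs straddle or hug 0, and the lowest DHA values, those of Kcnk6 and Kcna5 on array 1, belong to marked genes.

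The inward rectifiers set the resting potential and include the pores of the ATP-sensitive channel. The EPA median of these 14 genes was 0.01 and the DHA median 0.0086, and for the 9 outside the edge columns they were 0.0036 and -0.02. Kcnj2, the main ventricular inward rectifier, stayed close to 0, at 0.05 and -0.06 with EPA and -0.05 and -0.0074 with DHA. Kcnj12, its close relative, had means of 0.07 ± 0.10 and -0.06 ± 0.13, and Kcnj4 (edge) of 0.14 ± 0.23 and -0.01 ± 0.18. Kcnj3, which joins Kcnj5 in the acetylcholine-activated atrial channel, lay at 0.38 and 0.02 with EPA and at -0.15 and 0.20 with DHA. Kcnj5 had means of 0.07 ± 0.07 and 0.15 ± 0.06.

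The pores of the ATP-sensitive channel showed different patterns. Kcnj8 lay at -0.06 and -0.21 on EPA arrays 1 and 2 and at 0.24 and 0.12 on DHA arrays 1 and 2, below 0 with EPA and above 0 with DHA. Kcnj11 split by dye orientation, at -0.24 and 0.19 with EPA and at -0.30 and 0.13 with DHA. Their sulphonylurea receptor partners Abcc9 and Abcc8 had means of 0.04 and 0.03 with EPA and of 0.08 and -0.0055 with DHA, Abcc8 with a probe at the edge. Kcnj9 (edge), a neuronal inward rectifier, was high on EPA array 1 alone, with 0.64 there, -0.06 on EPA array 2 and -0.23 and -0.26 on the DHA arrays.

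The Kcnk genes encode background potassium channels that help to hold the resting potential. The EPA median of these 9 genes was -0.03 and the DHA median -0.15, and for the 4 genes outside the edge columns they were -0.04 and -0.02. Kcnk6 (edge) lay at 0.05 and -0.10 on EPA arrays 1 and 2 and at -1.38 and -0.15 on DHA arrays 1 and 2, which made it the lowest channel gene with DHA. Kcnk9 (edge) lay at -0.75 and -0.07 with DHA and Kcnk13 (edge) at -0.58 and -0.15. In these genes the DHA arrays lay further apart than array 2 lay from 0. Kcnk4 (edge), a mechanically gated channel, had the highest EPA mean of all channel genes, 0.37 ± 0.22, from 0.59 and 0.15, and -0.15 on each DHA array.

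The other Kcnk genes had smaller means. Kcnk3, an acid-sensitive background channel of heart, had means of -0.04 ± 0.02 with EPA and -0.0083 ± 0.09 with DHA. Kcnk1 was at -0.07 ± 0.13 and 0.10 ± 0.14, and the stretch-activated Kcnk2 (edge) at -0.06 ± 0.18 and -0.15 ± 0.16. Kcnk12 lay below 0 everywhere, at -0.09 and -0.18 with EPA and -0.09 and -0.15 with DHA.

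For the 8 genes of calcium- and sodium-activated potassium channels the EPA median was 0.0092 and the DHA median 0.02. For the 5 outside the edge columns they were -0.0054 and -0.0008. Kcnma1, the pore of the large-conductance channel, had the lowest EPA mean of all channel genes, at -0.24 ± 0.27. It lay at -0.51 and 0.03 with EPA and at -0.30 and 0.23 with DHA, so the low values were those of arrays 1. Kcnn3 (edge), a small-conductance channel, stayed within 0.09 of 0, and Kcnt1 (edge), a sodium-activated channel, was at -0.11 and 0.22 with EPA and 0.18 and 0.21 with DHA. Of the pacemaker genes, Hcn2 (edge) had means of -0.11 ± 0.10 with EPA and -0.01 ± 0.05 with DHA, and Hcn3 of -0.03 ± 0.16 and 0.05 ± 0.11.

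The lowest DHA means belonged to genes with an edge probe. Of all 101 genes, 4 had a DHA mean at least 1.3-fold below control, namely Kcnk6, Kcna5, Kcnk9 and Cacnb2, and all 4 have their probe in the edge columns. Over all genes 8.15% had such a mean. Outside the edge columns the count was 0 of 65, against 0.831% of all genes there. On DHA array 1 alone, the 41 genes with an edge probe ran from -1.38 to 0.72, while the other 60 ran from -0.52 to 0.24. On EPA array 1 the same 41 genes had a median of 0.11 against -0.02 for the others. They ran from -0.39 to 0.64 there, while the other 60 ran from -0.51 to 0.38. All 3557 named genes with an edge probe had a median of 0.07 on EPA array 1. With the median of each grid column removed, the DHA mean was -0.54 for Kcna5 and -0.17 for Cacnb2, beside -0.65 and -0.39 before. That of Kcnk13 (edge) was -0.36 both before and after. The values of Kcnk6 and Kcnk9 in this setting are not given here. How far position accounts for these values was not tested gene by gene.

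**Figure D3:**
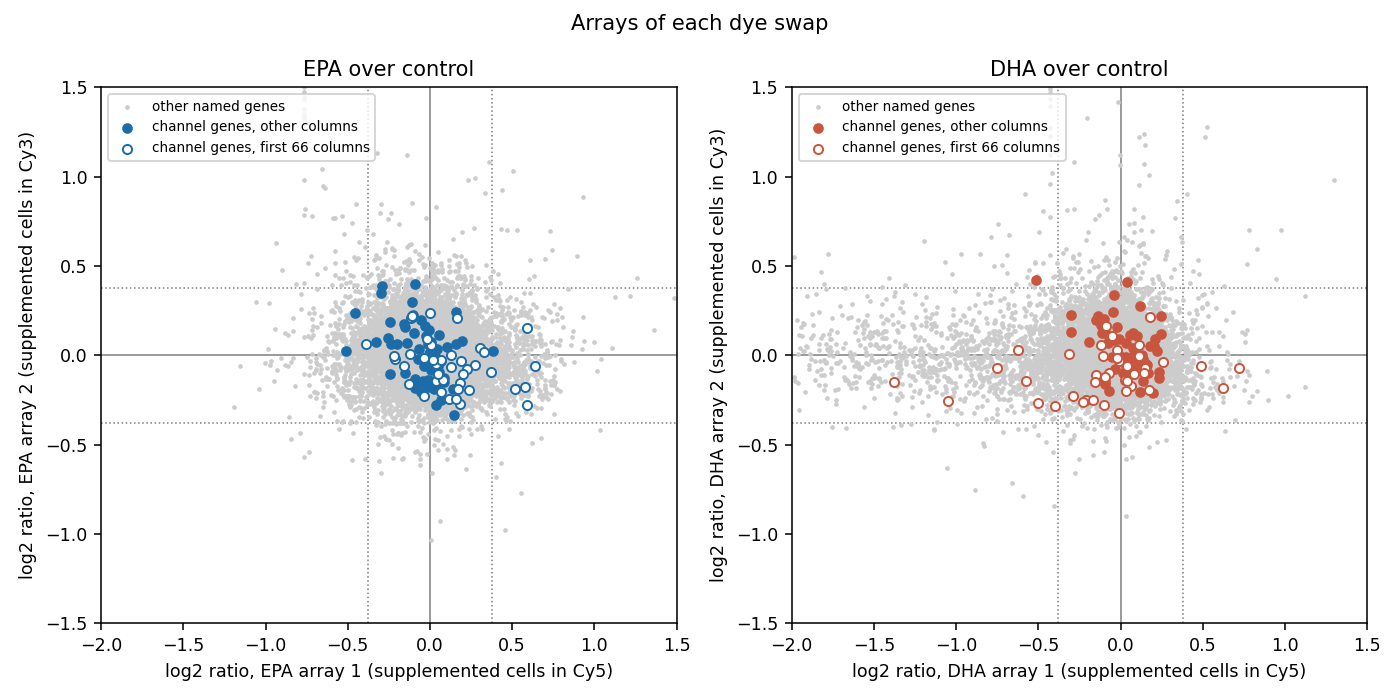
Log2 ratio on array 1 (horizontal axis) against array 2 (vertical axis) of each dye swap, EPA left and DHA right, for channel genes (coloured; open circles have a probe in the first 66 grid columns) over all named genes (grey); 11 and 131 genes lie outside the axes. No channel gene lies beyond the dotted 1.3-fold lines in the upper right or lower left corner, and open circles spread along the DHA array 1 axis.

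The arrays of a swap agreed on the side of 0 for a minority of channel genes. Opposite sides were taken by 68 genes with EPA and 60 with DHA, where 55.1% and 54.3% of all genes did. Outside the edge columns 43 of 65 did with each, where 54.1% and 59.5% of all genes there did. With EPA, 14 genes were above 0 on both arrays and 19 below, where 22.0% and 22.9% of all genes were. With DHA, 16 were above and 25 below, where 21.3% and 24.4% of all genes were. Outside the edge columns 13 were above and 9 below with EPA (22.3% and 23.5% of all genes there), and 12 above and 10 below with DHA (19.5% and 21.0%). Pearson's r between the arrays of a swap, over 101 genes that share the same 2 hybridizations, was -0.38 with EPA and 0.08 with DHA. Without the edge columns it was -0.38 and -0.42 over 65 genes. Over all named genes it was -0.12 with EPA and -0.04 with DHA, and -0.095 and -0.15 without the edge columns.

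Only Kcnh1 and Kcnh6, 2 of the 101, stood above 0 on every array, where 7.0% of all genes did. Below 0 on all 4 arrays were 4, Kcnj1 (edge), Kcnk12, Scn11a and Scn7a (edge), where 7.59% of all genes were. Kcnh1, named here after its values were seen, was at 0.05 and 0.11 with EPA and 0.035 and 0.07 with DHA. Kcnj1, likewise, was at -0.04 and -0.01 with EPA and -0.10 and -0.12 with DHA. Outside the edge columns 3 of 65 were above (7.79% of all genes there) and 2 below (8.69%). More genes split the same way in both swaps, by array number and thus also by dye orientation. Of the 101, 19 lay above 0 on both arrays 1 and below 0 on both arrays 2, where 12.2% of all genes did, and 17 showed the reverse, where 15.8% did. Outside the edge columns the counts were 15 and 14 of 65, where 14.6% and 17.5% of all genes there did. If the table ran Cy5 over Cy3, those 36 genes and not the 6 above would be the ones on a single side, and Cacna2d1 alone would meet the size rule, as lower with DHA (0.694% of all genes).

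For both fatty acids together, limma tested the 2 swap means of each gene against 0 over 17403 genes and unnamed probes. No channel gene passed an adjusted p of 0.05 (0 of 101, with 0.0% of all features), and their adjusted p ran from 0.885 to 1. At an unadjusted p under 0.05 there was 1 of 101, where 4.5% of all features passed. It was Cacng4, with a joint mean of 0.19 ± 0.06 (SE, unadjusted p = 0.0452, adjusted p = 0.885 by limma), and it was above 0 on 3 of 4 arrays. The next smallest p above control belonged to Kcnh6, Cacng2, Scn3a and Kcnt1, with joint means of 0.13, 0.20, 0.11 and 0.125. Below control they belonged to Scn7a, Kcnk12, Scn11a, Scn10a and Kcnk6, with joint means of -0.15, -0.13, -0.12, -0.19 and -0.40. Without the edge columns the smallest adjusted p among the 65 genes was 0.254 by limma, and 0 passed, where 0.0476% of all features did. There Cacng4, Kcnk12 and Scn11a had an unadjusted p under 0.05, 3 of 65, where 12.7% of all features did. This test measures error by how far EPA and DHA lie apart, and the labels do not say if they shared a control RNA.

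EPA and DHA were then compared at their matched dose of 60 µM, as 1 pair of compounds. Arrays of the same number share the dye orientation, so a dye effect common to both drops out of the difference. No channel gene differed by 1.3-fold in the same direction in both orientations (0 higher with EPA and 0 lower, where 0.269% and 0.135% of all genes did, and 0.208% and 0.111% outside the edge columns). Among genes whose orientations shared a sign, the largest differences above 0 were those of Kcnk6 (edge), Kcna5 (edge) and Kcnj9 (edge), with 0.74, 0.67 and 0.53. For Kcnk6 the difference was 1.43 on arrays 1 and 0.05 on arrays 2, for Kcna5 1.29 and 0.06, and for Kcnj9 0.87 and 0.20. All 3 have their probe in the edge columns, and their differences came mainly from arrays 1.

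Under the same condition, the 3 largest differences below 0 had no edge probe. Kcnj8 differed by -0.31, with -0.30 on arrays 1 and -0.33 on arrays 2, so the orientations gave nearly the same value. Kcng3 differed by -0.25, with -0.19 and -0.31, and Cacna1h by -0.23, with -0.38 and -0.08. Kcnj8 stayed under the 1.3-fold threshold in both orientations.

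With 1 RNA sample per fatty acid this difference has no test between cultures. A limma fit over the 4 arrays with dye orientation as a term took the arrays as samples and gave intervals that cover array error only. Its 95% interval reached 0.313 to either side of the difference, as a median over the 101 genes, which is a little under a 1.3-fold difference. The interval was -0.24 to 0.35 for Cacna1c, -0.30 to 0.35 for Kcnj2, -0.41 to 0.18 for Kcnd2 and -0.10 to 0.51 for Kcnq1, so those of Cacna1c and Kcnj2 stayed within 1.3-fold either way and those of Kcnd2 and Kcnq1 reached past it. For 99 genes the interval held 0. The other 2 were Kcnj8, at -0.61 to -0.02, and Kcnk4 (edge), at 0.05 to 0.999. Both had an unadjusted p under 0.05, 2 of 101, where 1.75% of all features did, and 0 passed an adjusted p of 0.05 (smallest 0.775 by limma). Without the dye term 1 had an unadjusted p under 0.05, where 1.03% did. Both EPA arrays lay on one side of 0 and both DHA arrays on the other in 9 of 101 genes, where 8.49% of all genes did, and in 6 of 65 outside the edge columns, where 5.99% did.

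**Figure D4:**
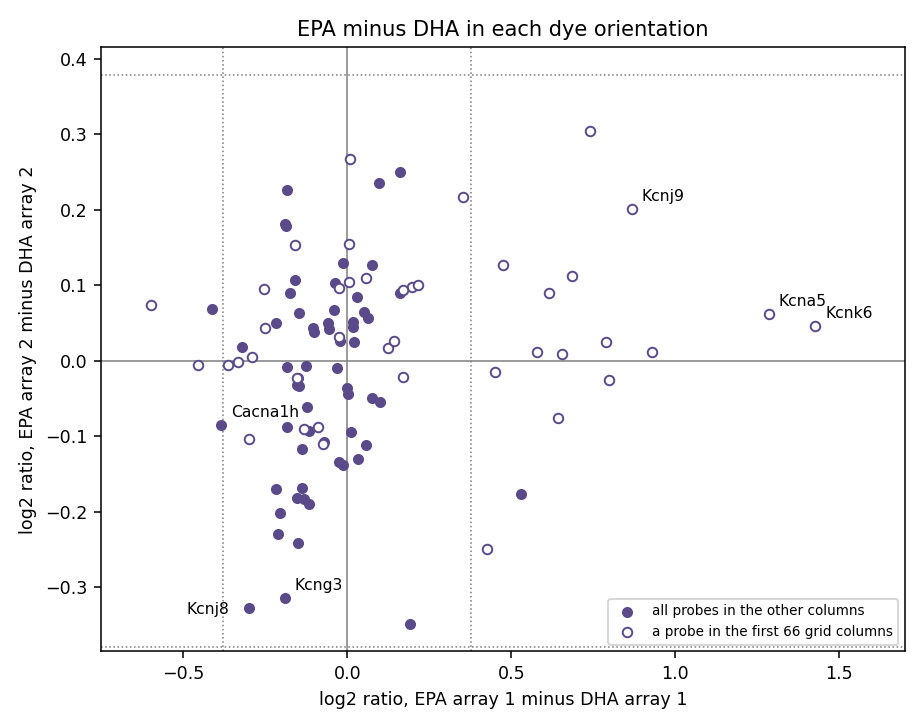
EPA minus DHA (log2 ratio) in arrays 1 (horizontal axis) and arrays 2 (vertical axis) for the 101 channel genes; open circles have a probe in the first 66 grid columns, dotted lines mark 1.3-fold and labels name the 3 highest and 3 lowest mean differences among genes whose orientations share a sign. Kcnk6 and Kcna5 lie far right but near 0 vertically, and Kcnj8 and Kcng3 lie below 0 on both axes.

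Partners of the channels outside the naming rule were also counted. Of 62 listed genes for calcium cycling, gap junctions, sodium pumps and channel regulators, 46 were measured, and 0 met the size rule with either fatty acid, against the shares of all genes given above (0.176% higher and 0.0829% lower with EPA, 0.145% and 0.238% with DHA). Their medians were 0.03 with EPA and 0.02 with DHA. The means of 41 of the 46 stayed within 1.3-fold with both fatty acids (8654 of all 9653 genes). Outside the edge columns those of 33 of the 35 did (7009 of the 7223 genes there). Of the 46, 7 lay above 0 on all 4 arrays and 3 below, where 7.0% and 7.59% of all genes did. Marker lists of the cell types such cultures can hold gave medians of 0.05 and 0.06 for 8 measured cardiomyocyte genes with EPA and DHA, 0.07 and -0.05 for 8 fibroblast genes, 0.11 and -0.04 for 4 smooth muscle genes, and 0.01 and 0.05 for 6 endothelial genes. They were -0.09 and -0.03 for 6 macrophage genes, 1 of which was lower by the size rule with DHA, and -0.16 and 0.03 for 10 genes of neurons and Schwann cells. The macrophage gene stands against 0.238% of all genes. Outside the edge columns the cardiomyocyte and endothelial medians were -0.0052 and -0.03 with EPA. The fibroblast median was 0.03 with DHA there, so each of these had the other sign. Single markers went both ways, from -0.49 to 0.64 among fibroblast genes with DHA. There the means of 5 of 8 stayed within 1.3-fold (8787 of all 9653 genes with DHA). Outside the edge columns the 6 fibroblast genes ran from -0.18 to 0.61 with DHA. Of these, 4 stayed within 1.3-fold (7104 of the 7223 genes there). The part of these cell types in the channel values was not tested.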

How the data were processed

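The authors deposited a single number for each of 22575 features on every array, treated here as log2 of the ratio between supplemented and control cells, and 20500 features were filled on all 4 arrays. Per the labels, the cRNA carried Cy3 or Cy5. How the arrays were scanned, corrected for background and normalized for dye was not given in the sources used here, nor were the log base and the direction. Array medians were set to 0. Probes were named from the platform annotation, with symbols updated through gene IDs of the GRCr8 gene table: 12750 had 1 symbol, 5 had several and 7745 were unlisted. Probes of a gene were averaged. Features in the first 66 columns are those whose number minus 1, modulo the inferred number of columns, is under 66.

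Limma 3.58.1 in R 4.3.3 (lmFit, eBayes, Benjamini-Hochberg) tested the swap means of 17403 genes and unnamed probes, after a check on simulated data. Arrays of the same number share the dye orientation per the labels, and their deviations from the swap means correlated at 0.312 over all probes. The ratios themselves correlated at 0.062 between arrays 1 and 0.654 between arrays 2 (0.383 and 0.653 without the edge columns). Within a swap they correlated at -0.106 with EPA and -0.029 with DHA (-0.092 and -0.156). The members, lists, tests and the threshold of 1.3-fold were chosen with earlier results of these data known. The named genes are those of a list of 47 cardiac channel genes (37 measured), for each fatty acid the 5 highest and 5 lowest means whose arrays share a sign, the 3 highest and 3 lowest EPA to DHA differences likewise, the 5 smallest joint p in each direction, and genes whose probes differ by over 0.5. With 4 arrays, their number limits the precision.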

Additional observations from a re-analysis of the deposited data

Results flagged for a closer look

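Among the genes named by the rule, 6 had both EPA arrays on one side of 0 and both DHA arrays on the other, a pattern shown by 9 of the 101 channel genes and by 8.49% of all genes. The EPA minus DHA difference was -0.31 for Kcnj8, -0.22 for Kcne2, -0.20 for Cacna1d, 0.20 for Kcnq1, 0.30 for Cacng6 and 0.52 for Kcnk4. Cacng6 and Kcnk4 have their probe in the first 66 grid columns. The difference was not tested between cultures for any of them. Without those columns 6 of 65 channel genes showed the pattern, where 5.99% of all genes did. Of the genes given here these include Cacna1d, Kcnj8 and Kcnq1. Kcne2, which has no probe in those columns, lost the pattern when the array medians were taken without them.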

How the results depend on the processing

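The counts of 0 channel genes past the size rule, or past an adjusted p of 0.05 by limma, held under most alternatives: values as deposited, equal spread, column medians removed, probes taken singly, 1.5-fold and each array left out in turn, the joint count being 0 to 0. Quantile normalization gave 1 gene with DHA (Kcna5, lower, where 0.663% of all genes were) and 3 for EPA minus DHA (Cacnb2, Kcna3 and Kcnj9, higher, where 1.23% were), all with edge probes. Reading the table as Cy5 over Cy3 gave 1 gene with DHA, an EPA median of 0.0286, and 36 genes on a single side of 0 on all 4 arrays in place of 6. Leaving out probes with repeated values, at the limit of 0.1, took away 14031 probes, most of them ordinary values. It kept 3632 of the 9653 named genes, and 17 of the 54 genes named by the rule. Among the channel genes kept, 1 was on a single side, and the share of all genes kept that were is not given here. At a limit of 0.4, added after seeing the data, leaving out such probes took away 50 probes and no channel probe. Limma over the 4 arrays gave 0 channel genes, jointly and for EPA minus DHA, without and with the replicate block (dye orientation). At an unadjusted p under 0.05 it gave 1 and 0 jointly, where 4.78% and 2.93% of all features passed. For the difference it gave 1 and 2, where 1.03% and 1.75% of all features did. Over single arrays the list's median ran from -0.0264 to 0.0043 with EPA and from -0.0306 to 0.0257 with DHA. Of the 54 named genes, the sign of the EPA mean turned in 32 and of the DHA mean in 23 under the Cy5 over Cy3 reading, and in 8 and 13 with column medians removed. Without the first 66 grid columns it turned in 4 and 7 of the 32 with a value there.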
